A study of Mus musculus with 7 samples.

Results

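Imprinted genes are usually expressed from only one parental copy. Of 9 imprinted growth-control genes chosen by symbol (H19, Meg3, Dlk1, Mest, Peg3, Cdkn1c, Grb10, Plagl1 and Ndn), 8 had a row among the 18468 genes of the count table, and Cdkn1c was not analysed here. All 8 passed the filter on low counts. The reads come from C3H10T1/2, an established mouse embryo line that can form several mesenchymal tissues. After 12 h without serum, the cells received for 48 h either 2 μM purmorphamine, an agonist that acts on Smo and so engages the Hedgehog pathway (n = 4 libraries, replicates 5 to 8), or the vehicle alone, 0.02% DMSO (n = 3 libraries, replicates 2 to 4). The 48 h of treatment were also without serum, in both groups. Both groups are this single line, with no transgene or virus. The labels do not say that the libraries come from separate cultures, so the p-values measure the spread between these libraries, which may be technical.

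Imprints are mostly DNA methylation marks set in the egg or sperm, and they make the expression of a gene depend on its parental origin. Many imprinted genes act on fetal growth, where paternally expressed genes tend to promote it and maternally expressed genes tend to restrain it. They lie in clusters in which a long non-coding RNA is often expressed from one parental copy and protein-coding genes from the other. Most are abundant in the embryo and fall after birth, and mesenchymal tissues are among the places where they are expressed. The reads do not separate the parental copies, so all values are sums over both.

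Several of these genes carry microRNAs, and the mature sequences are shown because the host transcripts H19, Mest and Meg3 were all higher with purmorphamine. The sequences are from RefSeq (GRCm38.p6), 5′ to 3′, and capitals mark the seed, bases 2 to 8, which pairs with target RNAs. Small RNAs were not measured here, so only the host transcripts have values. In H19, on the minus strand of chromosome 7, lie the following.
mmu-miR-675-5p: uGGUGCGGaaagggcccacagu
mmu-miR-675-3p: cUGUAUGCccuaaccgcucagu
In Mest, on the plus strand of chromosome 6, lie the next pair.
mmu-miR-335-5p: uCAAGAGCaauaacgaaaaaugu
mmu-miR-335-3p: uUUUUCAUuauugcuccugacc
In Meg3, on the plus strand of chromosome 12, lie these.
mmu-miR-1906: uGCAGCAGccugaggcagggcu
mmu-miR-770-5p: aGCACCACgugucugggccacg
mmu-miR-770-3p: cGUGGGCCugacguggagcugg
In Igf2, the neighbour of H19 on chromosome 7, lie the last pair.
mmu-miR-483-5p: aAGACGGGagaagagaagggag
mmu-miR-483-3p: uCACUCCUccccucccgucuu
The 9 mature sequences hold 9 different seeds, so none of them form a seed family with each other.

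Each library held between 14337225 and 14342154 reads on genes, since the authors resampled the reads to equal depth, and 3 reads, the limit that a count of 0 allows, correspond to 0.209 CPM, the reads scaled to a common library total. That limit covers counting error only. Known targets of the pathway moved with treatment: Gli1 had 7 to 12 reads with DMSO and 2522 to 3171 with purmorphamine, and Ptch1 and Hhip also rose (edgeR). Of 8 mesenchymal markers, 2 rose and 3 fell (edgeR, adjusted p under 0.2), beside 31.4% higher and 31.1% lower over all genes tested. The summed level of these markers was 23380 to 25160 CPM with DMSO and 19960 to 21660 with purmorphamine. Of 16 proliferation genes, 15 rose by the same call, beside 31.4% of all genes tested. The summed level of the 16 was 986 to 1044 CPM with DMSO and 1343 to 1738 with purmorphamine. Epithelial markers summed to 0.976 to 1.604 CPM with DMSO and 7.74 to 9.49 with purmorphamine, of which only Cdh1 passed the filter, while Krt8 and Krt14 had at most 3 reads in any library and Epcam, Krt18 and Krt5 were not analysed here. Endothelial markers summed to 54.3 to 57.2 and 132 to 150 CPM, of which Tek and Cdh5 were tested and rose. Adipocyte markers summed to 3.28 to 4.53 and 1.33 to 1.95 CPM, and blood and skeletal muscle markers reached at most 1.325 CPM in any library. The part that these shifts play in the values of the imprinted genes was not tested. In such bulk RNA, fewer cells of a type and less RNA per cell cannot be told apart.

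Among the 8 imprinted growth-control genes, 6 were higher with purmorphamine (H19, Mest, Meg3, Grb10, Plagl1 and Ndn) and 2 were lower (Dlk1 and Peg3). The call is a Benjamini-Hochberg adjusted p under 0.2 in edgeR's quasi-likelihood test, the false-discovery rate that the study used. Over all 12388 genes tested, 31.4% were called higher and 31.1% lower, so calls of either direction were common. That balance depends on the scaling: the counts were 3887 higher and 3854 lower with TMM factors, but 4652 and 3163 with library totals alone. The 6 and 2 calls of the members were the same under both. For 7 of the 8 the purmorphamine and DMSO libraries did not overlap, against 49.5% of all genes tested. The median log2 fold change of the 8 was 0.41, and that of all genes tested was 0.0038. The members were chosen with earlier results of these data known, so these comparisons with all genes are a description only. The exact permutation test over the 35 ways of assigning the libraries cannot give a p below 0.0286, and it gave that value for H19, Meg3, Dlk1, Mest, Grb10 and Ndn.

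**Figure D1:**
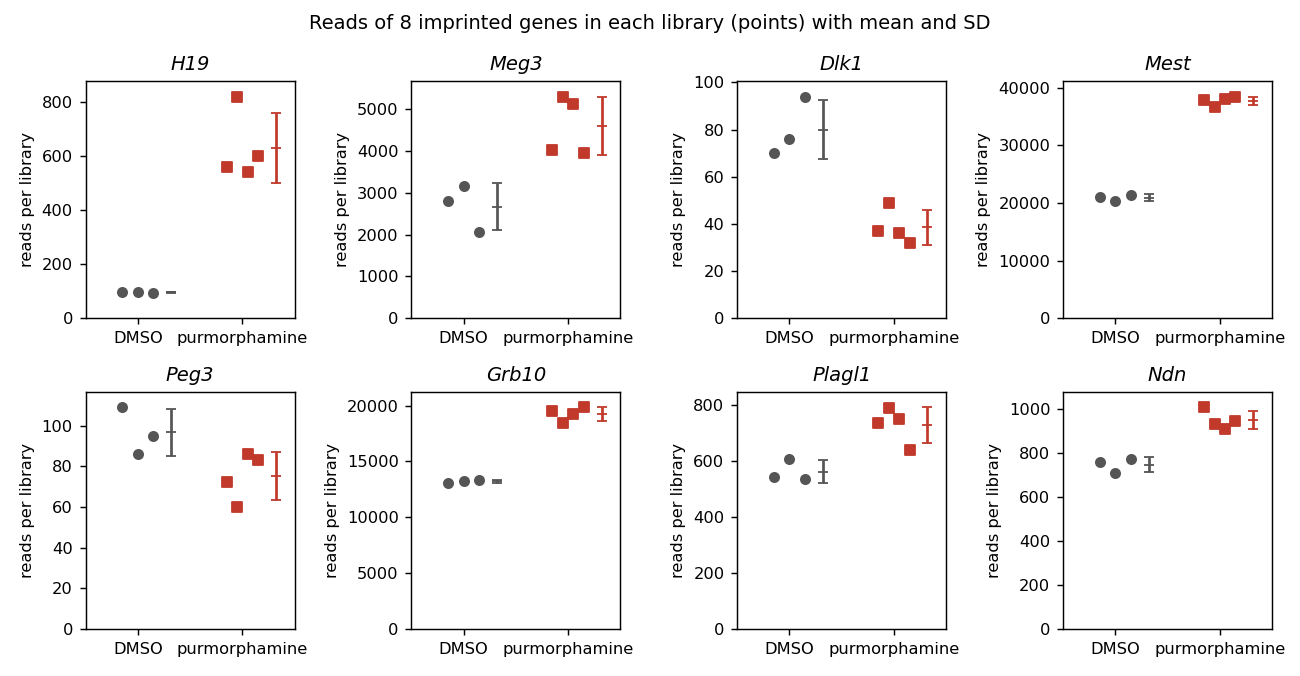
Reads per library (vertical axis, from 0, a different scale in each panel) for the 8 genes, with DMSO libraries as grey circles and purmorphamine libraries as red squares, in order of replicate number from left to right, and bars for the mean and SD beside them. H19 shows the widest gap relative to its DMSO level, from at most 97 to at least 541 reads, and Peg3 is the only panel in which the groups touch, at 86 reads.

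The non-coding RNAs are taken first. H19, a maternally expressed RNA known to restrain growth in the embryo (ENSMUSG00000000031, chromosome 7 from 142575529 to 142578143 in GRCm38, minus strand), was counted at 96, 97 and 94 reads with DMSO and at 562, 822, 541 and 601 with purmorphamine. The DMSO libraries were within 3 reads of each other, and every purmorphamine library lay far above them, replicate 6 highest. The mean rose from 95.7 ± 1.53 (SD, n = 3) to 632 ± 129 (SD, n = 4), or 6.60-fold. edgeR put the log2 fold change at 2.67 with an SE of 0.143 (adjusted p = 1.01e-10). Only 66 of the genes tested had a larger one, which placed H19 at percentile 99.5. Without replicate 6 the log2 fold change was 2.53.

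Meg3, a maternally expressed RNA studied as a brake on cell proliferation (ENSMUSG00000021268, chromosome 12 from 109541001 to 109571726, plus strand), had 2803, 3155 and 2052 reads with DMSO and 4034, 5292, 5112 and 3952 with purmorphamine. The libraries spread widely within each group, DMSO replicate 4 lowest of all, but the groups did not overlap. The mean rose 1.72-fold, from 2670 ± 563 (SD, n = 3) to 4598 ± 703 (SD, n = 4), which edgeR put at 0.74 on the log2 scale with an SE of 0.119 (adjusted p = 7.26e-05). Leaving out DMSO replicate 4 brought it to 0.59, and leaving out DMSO replicate 3 to 0.87.

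Dlk1, the paternally expressed neighbour of Meg3, encodes a membrane protein with EGF-like repeats that keeps preadipocytes from differentiating (ENSMUSG00000040856, chromosome 12 from 109452823 to 109463336, plus strand). It had 70, 76 and 94 reads with DMSO and 37, 49, 36 and 32 with purmorphamine. All purmorphamine libraries lay below all DMSO libraries, although purmorphamine replicate 6 came closest to them. The mean fell from 80.0 ± 12.5 (SD, n = 3) to 38.5 ± 7.33 (SD, n = 4), which is 48.1% of the DMSO mean. edgeR put the log2 change at -1.10, SE 0.171, with an adjusted p = 4.86e-05, at percentile 3.08 of the genes tested. Dlk1 had the fewest reads of the 8 genes with purmorphamine.

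Mest, a paternally expressed gene for a membrane enzyme of the hydrolase type that tracks with fat and embryonic growth (ENSMUSG00000051855, chromosome 6 from 30723547 to 30748465, plus strand), had 21070, 20320 and 21431 reads with DMSO. With purmorphamine it had 37834, 36711, 38088 and 38332. Both groups were tight and lay far apart. The mean rose 1.80-fold, from 20940 ± 567 (SD, n = 3) to 37741 ± 716 (SD, n = 4), and edgeR put the log2 change at 0.80, SE 0.0466, with an adjusted p = 2.91e-10.

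Grb10 encodes an adaptor that binds the insulin and IGF1 receptors and dampens their signal, and it is maternally expressed in most tissues outside the brain (ENSMUSG00000020176, chromosome 11 from 11930508 to 12038683, minus strand). It had 13068, 13274 and 13330 reads with DMSO and 19490, 18447, 19222 and 19844 with purmorphamine. Every purmorphamine library lay far above the highest DMSO library. The mean rose 1.46-fold, from 13224 ± 138 (SD, n = 3) to 19251 ± 593 (SD, n = 4), which edgeR put at 0.49 on the log2 scale with an SE of 0.0453 (adjusted p = 1.02e-07).

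The remaining 3 genes encode nuclear regulators and moved least. Plagl1, a paternally expressed zinc finger factor that can arrest the cell cycle and act on other imprinted genes (ENSMUSG00000019817, chromosome 10 from 13060504 to 13131694, plus strand), had 544, 609 and 535 reads with DMSO and 736, 791, 751 and 640 with purmorphamine. The lowest purmorphamine library, replicate 8, was 31 reads above the highest DMSO library. The mean rose 1.30-fold, from 563 ± 40.4 (SD, n = 3) to 730 ± 64.0 (SD, n = 4), and edgeR put the log2 change at 0.33, SE 0.0733, with an adjusted p = 0.00146. After scaling of the libraries the exact permutation test gave p = 0.0571 for Plagl1.

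Ndn, a paternally expressed MAGE family gene whose product restrains proliferation in neurons (ENSMUSG00000033585, chromosome 7 from 62346569 to 62350262, plus strand), had 762, 709 and 772 reads with DMSO and 1009, 935, 912 and 948 with purmorphamine. The groups did not overlap. The mean rose 1.27-fold, from 748 ± 33.9 (SD, n = 3) to 951 ± 41.4 (SD, n = 4), which edgeR put at 0.30 on the log2 scale with an SE of 0.0562 (adjusted p = 0.000313).

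Peg3, a paternally expressed zinc finger gene linked to growth and maternal behaviour (ENSMUSG00000002265, chromosome 7 from 6703892 to 6730431, minus strand), gave 109, 86 and 95 reads with DMSO and 72, 60, 86 and 83 with purmorphamine. It was the one member whose groups overlapped, since DMSO replicate 3 and purmorphamine replicate 7 both had 86 reads. The mean fell from 96.7 ± 11.6 (SD, n = 3) to 75.2 ± 11.8 (SD, n = 4), which is 77.8% of the DMSO mean. edgeR put the log2 change at -0.41, SE 0.146, with an adjusted p = 0.0297, and the exact permutation test gave p = 0.0571. Without purmorphamine replicate 6 the log2 fold change was -0.30.

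Set against the parental copy usually expressed, the maternally expressed members H19, Meg3 and Grb10 were all higher (3 of 3). Of the 5 paternally expressed members 3 were higher and 2 lower, beside 31.4% higher and 31.1% lower over all genes tested. With so few members these counts are only a description. Among other imprinted genes tested, the median log2 fold change was -0.0049 for the 14 mainly maternally expressed. For the 14 mainly paternally expressed it was 0.076. Purmorphamine replicate 6 was the highest purmorphamine library for H19, Meg3, Dlk1 and Plagl1 and the lowest for Mest, Grb10 and Peg3. The calls of all 8 genes were kept without it.

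Levels of different genes were compared as RPKM, the reads scaled to exon length and library total, with exon lengths from GENCODE M21. Mest was the most abundant member, at 370 ± 10.0 (SD, n = 3) with DMSO and 667 ± 12.6 (SD, n = 4) with purmorphamine, followed by Grb10 at 101 ± 1.06 and 148 ± 4.55. With DMSO the order went on with Ndn (14.1), Meg3 (10.3), Plagl1 (5.02), H19 (2.71), Dlk1 (0.986) and Peg3 (0.506), and no neighbours in that order overlapped. With purmorphamine, H19 moved up to 17.9, a level whose library range (15.3 to 23.3) overlapped those of Ndn (17.2 to 19.1) and Meg3 (15.2 to 20.4). Plagl1 was at 6.51 with purmorphamine. Dlk1 (0.475) and Peg3 (0.394) were then lowest, with overlapping ranges. The lengths come from another annotation than that of the table, so levels between genes are approximate.

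**Figure D2:**
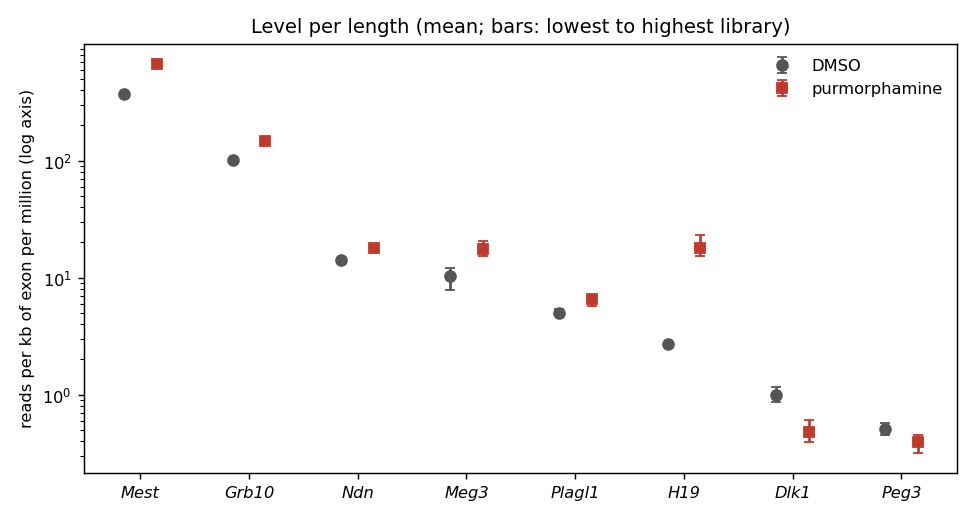
RPKM (log axis) for the 8 genes in order of their DMSO mean, with grey circles for the mean of the DMSO libraries, red squares for that of the purmorphamine libraries and bars from the lowest to the highest library. Mest stands highest in both groups (370 and 667), and H19 moves from 2.71 to 17.9, to the level of Ndn and Meg3.

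The members sit in imprinted domains, and the other genes of these domains were read from the same fit. Igf2, a paternally expressed fetal growth factor that shares enhancers with H19 and lies 72.2 kb from it in the coordinates of the table, had 110, 75 and 79 reads with DMSO and 431, 519, 411 and 388 with purmorphamine. It rose with H19 in every purmorphamine library (edgeR: log2 change 2.26, SE 0.131, adjusted p = 2.91e-10). In the same region Lsp1, an actin-binding protein of leukocytes, rose by a log2 fold change of 1.18, from 193 ± 7.81 (SD, n = 3) to 452 ± 58.2 reads (SD, n = 4), while Ctsd, a lysosomal protease, had a log2 fold change of -0.11 and Mrpl23, a mitochondrial ribosomal protein gene, was not called.

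In the Dlk1-Dio3 domain the maternally expressed non-coding RNAs Meg3, Rian and Mirg were all called higher. Rian, a host of small nucleolar RNAs, had 2642, 2671 and 2282 reads with DMSO and 2969, 3462, 3277 and 2972 with purmorphamine (edgeR: log2 change 0.28, SE 0.064, adjusted p = 0.00186). Mirg, a host of many microRNAs, had 89, 66 and 58 against 93, 125, 121 and 114 reads (edgeR: log2 change 0.63, SE 0.154, adjusted p = 0.0031), and its groups were separated by only 4 reads. Of the paternally expressed genes, Dlk1 was lower, as was Dio3, which encodes an enzyme that inactivates thyroid hormone. Dio3 had 16, 23 and 13 reads with DMSO and 4, 9, 7 and 7 with purmorphamine (edgeR: log2 change -1.39, SE 0.333, adjusted p = 0.0025), and with so few reads it was singled out after its values were seen. Rtl1, a gene derived from a retrotransposon, had 4 to 11 reads with DMSO and 5 to 11 with purmorphamine and was not called (adjusted p = 0.782 from edgeR). Its log2 fold change was -0.16 with an SE of 0.412, so at this depth a modest change in either direction could be missed.

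**Figure D3:**
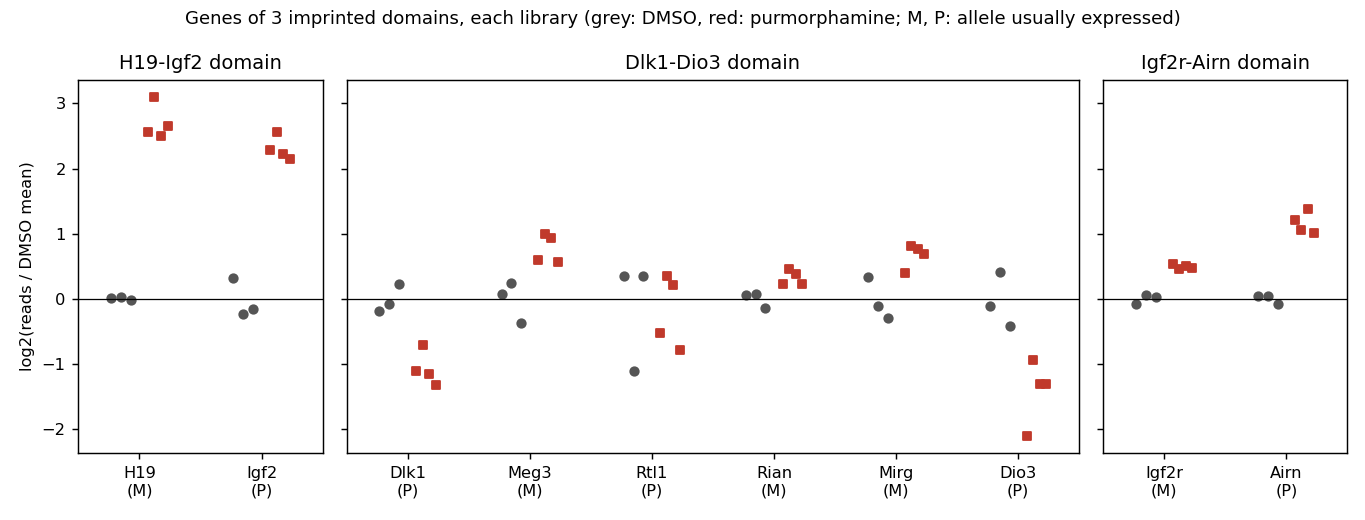
Log2 of the reads over the DMSO mean (vertical axis) in each library for genes of 3 imprinted domains, with DMSO libraries as grey circles and purmorphamine libraries as red squares, in order of replicate number, and M or P for the parental copy usually expressed. H19 and Igf2 move up together, Meg3, Rian and Mirg lie above the DMSO mean with purmorphamine whereas Dlk1 and Dio3 lie below it, and Rtl1 is mixed in both groups.

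Ratios between domain neighbours, 5 pairs chosen after the values were seen, remove what the pair shares in a library. Meg3 over Dlk1 rose from a mean ratio of 34.5 to 121, a log2 difference of 1.86 (SE 0.315). H19 over Igf2 went from 1.12 to 1.44, a log2 difference of 0.38 (SE 0.188), and here the highest DMSO library (log2 ratio 0.371) and the lowest purmorphamine library (0.383) nearly touched. Meg3 over Rian rose by 0.47 (SE 0.129), and Mest over its antisense neighbour Copg2 by 0.91 (SE 0.0253), both on the log2 scale. Airn, the paternally expressed non-coding RNA of the Igf2r domain, rose relative to Igf2r by 0.67 (SE 0.102). Since the pairs were picked with the changes of their genes known, these differences are a description, with no test.

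Around the other members, Copg2, a coat protein gene that overlaps Mest on the opposite strand, had 2228, 2228 and 2267 reads with DMSO and 2163, 2025, 2153 and 2249 with purmorphamine. The groups overlapped and edgeR put the log2 change at -0.11, SE 0.0471, with an adjusted p = 0.0694, a call that was lost with library totals alone (adjusted p = 0.292 from edgeR) and without DMSO replicate 4 (0.203). The reads were counted by strand, so Mest and Copg2 were separated. Near Mest the pancreatic carboxypeptidase gene Cpa1 had 15 to 23 reads with DMSO and 34 to 47 with purmorphamine, a log2 fold change of 0.89. Near Ndn, Peg12 fell from 90.0 ± 6.24 (SD, n = 3) to 55.8 ± 6.95 reads (SD, n = 4), with a log2 fold change of -0.74, while Mkrn3 was at 24.0 ± 1 and 31.2 ± 4.65 reads with overlapping groups and a call that held in only 5 of 16 alternatives. Near Plagl1, Stx11, a membrane fusion gene, rose by a log2 fold change of 1.23 and Ltv1, a ribosome assembly factor, fell by 0.23 on that scale. Counting each gene once, 24 tested genes lay within 200 kb of a member in the table's coordinates, Meg3 and Dlk1 among them as neighbours of each other. Of these 13 were higher, 7 were lower and 4 were not called, with a median log2 fold change of 0.30, beside 31.4% higher and 31.1% lower over all genes tested.

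A wider list of 53 other imprinted genes had 35 with a row and 29 tested. Of the 29, 11 were higher, 6 were lower and 12 were not called, with a median log2 fold change of -0.0021, next to 31.4% and 31.1% over all genes. Of the 14 that are mainly paternally expressed 6 were higher and 4 lower, and of the 14 mainly maternally expressed 5 were higher and 1 lower. These lists go by the copy usually expressed, and which copy each gene used in these cells was not measured. After Igf2 the largest rise was that of Airn, which had 286, 287 and 262 reads with DMSO and 643, 580, 727 and 560 with purmorphamine (edgeR: log2 change 1.13, SE 0.091, adjusted p = 2.26e-08). Igf2r, a receptor that clears IGF2 and is silenced in cis by Airn on the paternal copy, rose as well, from 7249 ± 357 (SD, n = 3) to 10186 ± 243 reads (SD, n = 4), a log2 fold change of 0.44. Slc22a18, a transporter gene of the Cdkn1c domain, rose by 0.92 on the log2 scale, from 32 to 44 reads up to 61 to 77.

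The other rises named were those of Sfmbt2, a Polycomb protein gene (log2 fold change 0.45), Impact, a translational regulator (0.30), Osbpl5, a lipid transfer protein gene (0.17), and Sgce, a sarcoglycan gene (0.12). Sgce shares its promoter region and its paternal expression with Peg10, a retrotransposon-derived gene, which instead fell. Peg10 had 190, 180 and 212 reads with DMSO and 134, 124, 100 and 102 with purmorphamine, with no overlap (edgeR: log2 change -0.80, SE 0.116, adjusted p = 2.35e-05). Mcts2, a gene linked to translation, had a log2 fold change of -0.29, but its groups overlapped and the call was lost without DMSO replicate 2 (adjusted p = 0.31 from edgeR). Gnas, a gene for a G protein subunit with transcripts from either parental copy, fell slightly, from 1868 ± 27.5 to 1730 ± 144 reads, and its groups overlapped (-0.16). Snrpn had at most 1 read in any library and was not tested, and Magel2, Kcnq1ot1, Phlda2 and Usp29 were not analysed here.

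**Figure D4:**
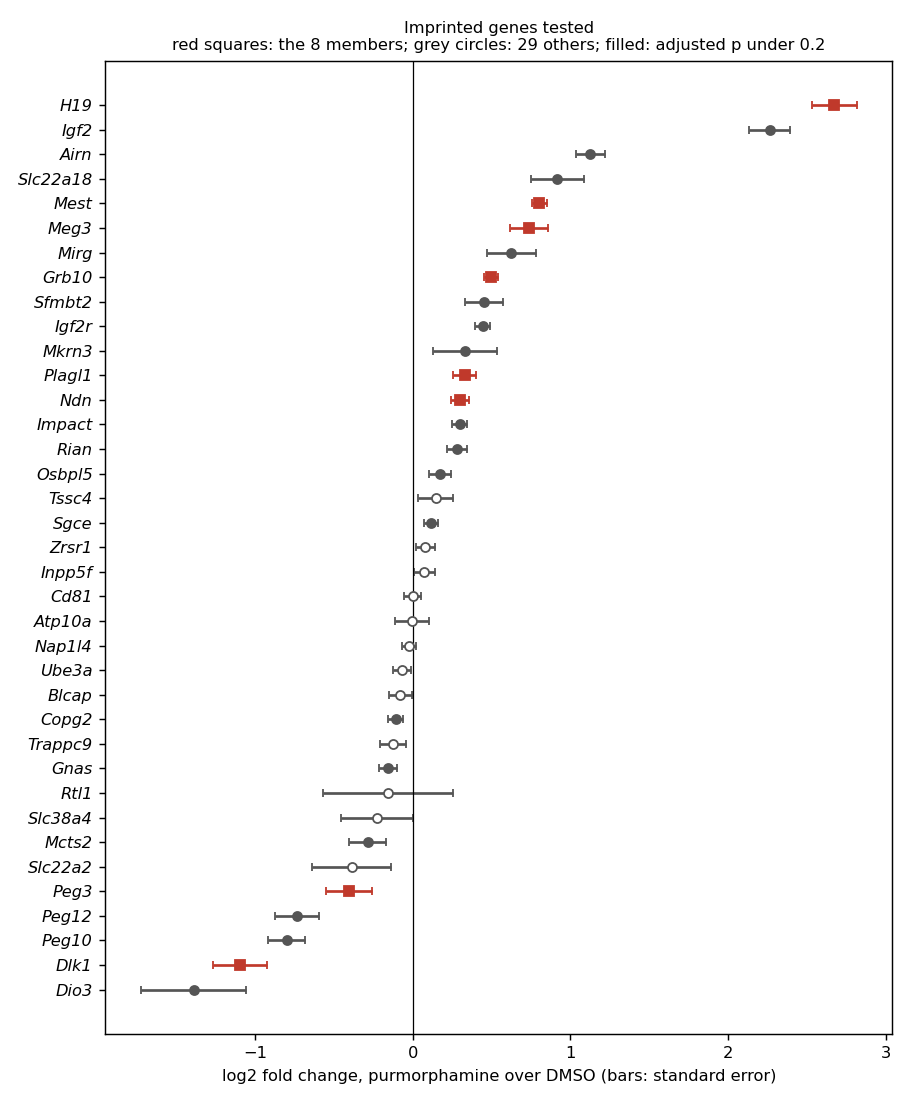
Log2 fold change of purmorphamine over DMSO (horizontal axis, bars for the standard error) for the 37 imprinted genes tested, with the 8 members as red squares and the 29 others as grey circles, filled where edgeR's adjusted p was under 0.2. H19 (2.67) and Igf2 (2.26) stand apart at the top, while Dlk1 (-1.10) and Dio3 (-1.39) lie at the bottom.

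Of 16 tested genes that set, keep or remove imprints, 5 were higher, about the 31.4% of all genes tested, and 3 were lower, where the share of all genes was 31.1%. Arid4a, a chromatin protein, rose by a log2 fold change of 0.46, Uhrf1, which brings the maintenance methylase to replicating DNA, by 0.42, and Dnmt1, that methylase, by 0.27. Dnmt3b, a de novo methylase, fell by 0.36 on the same scale, Tet1, which oxidizes methylcytosine, by 0.35, and Trim28, a corepressor that protects imprints, by 0.16. The groups of Trim28 overlapped, at 2159 to 2256 reads with DMSO and 1810 to 2310 with purmorphamine. Proliferation genes rose in the same libraries, and their part in these values was not tested. DNA methylation was not measured.

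Partners of the members were read in the same way, and of 44 tested 20 were higher and 16 lower, beside 31.4% and 31.1% of all genes tested. With library totals alone the partners were 21 higher and 11 lower, a shift in the same direction as that of all genes (4652 and 3163). Among Grb10's partners, its relative Grb14, also an adaptor that inhibits the insulin receptor, had 110, 114 and 114 reads with DMSO and 359, 329, 346 and 348 with purmorphamine, which edgeR put at 1.57 on the log2 scale with an SE of 0.086 (adjusted p = 1.43e-10). The receptor substrates Irs2 and Irs1 rose by 0.44 and 0.092 on the log2 scale, the growth factor Igf1 fell by 0.55, Nedd4, a ubiquitin ligase that binds Grb10, by 0.39 and the insulin receptor Insr by 0.10. The groups of Insr overlapped, at 1449 to 1486 reads with DMSO and 1301 to 1528 with purmorphamine (adjusted p = 0.134 from edgeR). The receptor Igf1r, at 1020 ± 9.29 and 1022 ± 46.1 reads, was not called.

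Although Cdkn1c itself was not analysed here, all 11 of the cyclins, kinases and related inhibitors listed as its partners were called, 7 higher and 4 lower, beside 31.4% and 31.1% of all genes tested. Some of these calls were weak, with overlapping groups for Ccnd3 (adjusted p = 0.19 from edgeR) and Ccne1 (0.148). Ccnd1, a G1 cyclin, rose 3.31-fold, from 2723 to 2948 reads up to 9051 to 9946, and the S phase cyclins Ccna2 and Ccne2 rose by 0.54 and 0.52 on the log2 scale. Cdk6, Ccne1 and Cdk4 fell by 0.66, 0.31 and 0.28 on the log2 scale. The sister inhibitors were on opposite sides, with a log2 fold change of 0.18 for Cdkn1b and -0.13 for Cdkn1a.

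Dlk1 is a relative of the Notch ligands, and of 8 tested genes around it 4 were higher and 3 lower, beside 31.4% and 31.1% of all genes tested. Hes1 and Hey1, targets of Notch signalling, had log2 fold changes of 1.72 and 1.34, and the receptor Notch2 one of 0.47. Sox9, a cartilage factor known to act downstream of Dlk1 in preadipocytes, fell by 1.45 on the log2 scale, from 5554 ± 273 (SD, n = 3) to 2096 ± 116 reads (SD, n = 4), the receptor Notch1 by 1.06 and the protease Adam17, which sheds Dlk1, by 0.10. Of the relatives of Plagl1, Peg3 and Ndn, Plag1 and Plagl2, zinc finger factors of the same family, rose by 0.48 and 0.37 on the log2 scale, and E2f1, a cell cycle factor that Ndn binds, by 0.21. Maged1, a MAGE gene like Ndn, fell by 0.53 and Trp53 by 0.20. Among 7 tested genes tied to H19, Mest and Meg3, 4 were lower and 3 were not called, beside 31.1% of all genes called lower, with Elavl1, an RNA-binding protein, at -0.27 and Jarid2, a Polycomb partner, at -0.22.

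Promoter windows, 250 bases before to 50 after a start in RefSeq (GRCm38.p6), were searched on both strands, because the Gli factors act at the end of the Hedgehog pathway and Plagl1 binds other imprinted genes. No window was available for H19, so H19 was not searched. The 9 letters of the Gli site, GACCACCCA, were in none of the windows of Mest, Peg3, Ndn, Plagl1, Grb10, Dlk1, Meg3 and Igf2, and in 83 of all 32851 windows (0.253%). Its first 8 letters, GACCACCC, a shorter search made after the windows had been seen, were in both windows of Meg3 and in 1 of Grb10, and in 0.807% of all windows. The letters GGGGCCCC, bound by Plagl1, were in the Peg3 window alone and in 1.08% of all windows. The windows of Meg3 (chr12:109540746-109541045, plus strand), Grb10 (chr11:12027922-12028221, minus strand) and Peg3 (chr7:6730370-6730669, minus strand) are shown 5′ to 3′ on the gene's strand, with those letters in capitals, because they are the windows with a match, apart from a second window of Meg3.
Meg3: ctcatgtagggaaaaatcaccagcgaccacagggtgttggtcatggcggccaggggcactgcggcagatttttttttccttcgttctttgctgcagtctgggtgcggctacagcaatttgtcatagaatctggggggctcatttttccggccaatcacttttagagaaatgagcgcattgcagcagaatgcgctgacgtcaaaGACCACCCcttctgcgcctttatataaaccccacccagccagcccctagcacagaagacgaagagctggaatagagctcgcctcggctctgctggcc
Grb10: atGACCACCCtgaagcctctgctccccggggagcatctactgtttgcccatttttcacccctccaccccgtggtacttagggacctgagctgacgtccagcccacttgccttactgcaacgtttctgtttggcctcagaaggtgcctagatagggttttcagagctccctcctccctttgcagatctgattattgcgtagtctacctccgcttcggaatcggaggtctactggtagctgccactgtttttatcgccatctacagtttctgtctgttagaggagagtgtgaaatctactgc
Peg3: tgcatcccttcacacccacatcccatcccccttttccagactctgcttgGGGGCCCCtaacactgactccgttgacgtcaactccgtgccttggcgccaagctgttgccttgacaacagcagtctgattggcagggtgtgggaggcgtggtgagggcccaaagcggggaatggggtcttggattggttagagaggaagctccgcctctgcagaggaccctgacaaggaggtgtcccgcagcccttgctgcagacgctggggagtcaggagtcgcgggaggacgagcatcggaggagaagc
Counted from the start, the matches begin at position -47 in Meg3, -248 in Grb10 and -201 in Peg3. Of these genes Meg3 and Grb10 were higher and Peg3 lower with purmorphamine. A match describes letters only, and binding was not measured.

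Finally, for each member the genes of most similar pattern were found over the 7 libraries, by the root mean square difference of log2 CPM centred on each gene's mean, among genes with at least 50 reads on average in both groups. Nearest to H19 were Sgms2 (0.203), a sphingomyelin synthase gene, and the transcription factor genes Klf4 (0.211) and Foxd1 (0.225). Nearest to Meg3 were 6720401G13Rik (0.093), Pisd-ps2 (0.103) and Amy1 (0.105), and to Dlk1 6330406I15Rik (0.124), Aebp1 (0.133), a regulator of fat cell formation, and Vasn (0.136), a membrane protein that binds TGF-beta. Mest was followed closely by Ak3 (0.0306), Tmsb4x (0.0311) and 9030425E11Rik (0.0313), and Grb10 by Pms1 (0.0193), Paics (0.0223) and Enpp4 (0.0234). Plagl1 was nearest to Dgka (0.0348), C530028O21Rik (0.0417) and Aasdh (0.0428), Ndn to Hmgn2 (0.0249), Ensa (0.0308) and Dirc2 (0.0381), and Peg3 to Rab27b (0.0783), Ppm1h (0.0857) and Aph1b (0.0948). The differences are largest for H19, and the reason was not tested. Many genes share a step between 2 groups, so likeness here says nothing of shared control.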

How the data were processed

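The reads of the 7 libraries, single reads of stranded total RNA depleted of ribosomal RNA, were resampled by the authors to equal depth and counted on the sense strand of genes, and the deposited counts are whole numbers. STAR 2.5.3a and mm9 are named in the submitters' processing notes, and the annotation is not given in the sources used here. Resampling removes differences in depth, so the totals say nothing of the original depth.

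Genes were filtered with edgeR 4.0.16 (R 4.3.3, minimum count 10, total 15), scaled with TMM factors and tested by quasi-likelihood with Benjamini-Hochberg adjustment over 12388 genes. The permutation test used log2 of scaled counts plus 1, two-sided. DESeq2 1.42.0 and limma-voom (limma 3.58.1) were alternatives, with other scalings, filters and thresholds and the omission of 1 library at a time. The calculations were tested on simulated data. Ensembl identifiers gave GRCm38 positions in GENCODE M21 for 95.5% of genes. The members and lists were chosen with earlier results of these data known. Genes named from a list are the largest changes in each direction (at least 50 reads on average in a group), with domain neighbours of the members in any case.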

Additional observations from a re-analysis of the deposited data

How the results depend on the processing

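Of 128 values (8 members under 16 alternatives), 124 kept their direction and call, none reversed, and 4 calls were lost, those of Peg3, Grb10, Plagl1 and Ndn when a change of at least 1.5-fold was required. With that requirement 3 members were higher and 1 lower, 977 of all genes higher and 936 lower, other imprinted genes 4 and 3, maintenance factors 0 and 0 and partners 4 and 3. At an adjusted p under 0.05, 13 partners were higher and 11 lower, and 10 other imprinted genes were higher and 4 lower. Of all 12388 genes tested, 2879 were higher and 2926 lower at that threshold. The count of maintenance factors called higher ran from 4 to 8 with each library left out, 8 without purmorphamine replicate 6. That of all genes called higher ran from 3500 to 3961, also highest without that replicate. Over the same fits the log2 fold change of H19 ran from 2.53 to 2.74, of Dlk1 from -1.23 to -0.96 and of Peg3 from -0.49 to -0.30 (largest adjusted p of edgeR 0.158). Scaling by library totals alone moved the median of all genes by less than 0.1, to 0.0513. Low reads limit Dlk1, Peg3, Dio3 and Rtl1. No paired analysis was possible because no replicate number occurs in both treatments.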
